A study of Mus musculus with 9 samples.

Results

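The imprinted growth genes followed here are 10 genes of the fetal growth network, Mest, Peg3, Igf2, H19, Igf2r, Dlk1, Meg3, Grb10, Plagl1 and Ndn. They were chosen by name, with earlier results of these libraries known, and no level or threshold entered the choice, so their values are given as a description and support nothing beyond it. Of the 10, 8 had a row among the 22544 of the FPKM table (fragments scaled to transcript length and library size) and the levels of H19 and Meg3 were not analysed here. The RNA came from mouse ovary, in 9 libraries of 3 groups with 3 libraries each. The design text describes the HBOT group as ovaries given CTX together with hyperbaric oxygen, which is breathed at raised pressure. CTX is commonly short for cyclophosphamide, an alkylating drug that injures follicles, and it is shared by the HBOT and CTX groups. The NC libraries name neither treatment. The sources used here give no strain, age, dose or time after treatment, and do not say whether a library was 1 animal or a pool. A p-value therefore measures the spread between these libraries, which may be technical.

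Imprinted genes are transcribed mainly from the chromosome of 1 parent, because a DNA methylation mark laid down in the egg or sperm is kept in the body cells of the offspring. Paternally expressed members of the network, such as Igf2, Peg3 and Mest, tend to promote fetal growth, and maternally expressed ones, such as Igf2r and Grb10, tend to restrain it. Many are turned down after birth. In the germ line the marks are erased, and in the ovary they are laid down again in growing oocytes. FPKM values add up both parental copies and all cells of the organ, so they hold no information on which copy was read.

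The promoters of Mest, whose HBOT libraries did not overlap the other groups, and of Plagl1, the most abundant of the 8 genes and the one with the highest single value, are shown with the hexamer TGCCGC that the imprint keeper ZFP57 binds when its CpG is methylated. The windows are RefSeq's on GRCm38.p6, a build other than the one named for the libraries, run from 250 bases before to 50 bases after a transcript start, and read 5′ to 3′ on the gene's strand. The motif was searched on both strands (TGCCGC and GCGGCA, overlaps counted), and capitals mark the matches.
Mest upstream start, chr6:30733256-30733555, plus strand: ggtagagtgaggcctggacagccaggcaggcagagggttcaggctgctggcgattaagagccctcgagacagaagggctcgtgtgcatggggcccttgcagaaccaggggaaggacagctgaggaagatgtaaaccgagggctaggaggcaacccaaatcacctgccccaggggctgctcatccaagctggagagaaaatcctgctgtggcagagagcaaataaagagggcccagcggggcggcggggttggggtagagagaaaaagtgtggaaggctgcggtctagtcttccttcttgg
Mest downstream start, chr6:30737800-30738099, plus strand: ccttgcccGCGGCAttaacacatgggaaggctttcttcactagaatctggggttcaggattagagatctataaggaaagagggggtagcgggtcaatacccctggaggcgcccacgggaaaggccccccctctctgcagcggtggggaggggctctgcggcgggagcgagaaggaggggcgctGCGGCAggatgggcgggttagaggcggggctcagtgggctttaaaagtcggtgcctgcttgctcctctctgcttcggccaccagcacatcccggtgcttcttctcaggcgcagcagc
Plagl1, chr10:13090582-13090881, plus strand: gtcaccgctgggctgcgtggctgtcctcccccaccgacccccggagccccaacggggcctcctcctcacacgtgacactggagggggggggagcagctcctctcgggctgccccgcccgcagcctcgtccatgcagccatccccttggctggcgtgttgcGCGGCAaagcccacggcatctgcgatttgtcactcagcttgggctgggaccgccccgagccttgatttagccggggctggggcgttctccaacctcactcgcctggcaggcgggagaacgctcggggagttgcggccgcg
The downstream Mest window held 2 matches and 17 CpG dinucleotides, and the upstream one held 0 matches and 8 CpG dinucleotides. A second listed downstream Mest start lies within the same stretch. The Plagl1 window held 1 match and 26 CpG dinucleotides. Of 32851 windows of this length in the table, 3813 (11.6%) held the motif, with a median of 7 CpG dinucleotides. For the members 9 genes had 16 windows, and 6 windows of 5 genes (Mest, Igf2, Plagl1, Grb10 and Meg3) held it. The 6 include both downstream Mest windows, which share the same matches. No share by gene or at matched CpG content was taken, so these counts cannot be compared with the 11.6%. Methylation was not measured, and a match is a description of the letters only.

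Library sums of FPKM ran from 394046 to 420058, and read depth is unknown because no read counts could be recovered. HBOT replicate 2 stood apart. In it 1637 genes differed by over 1 log2 unit from their mean in the others, against 173 to 347 in each of the remaining 8 libraries, and its highest rank correlation across genes with any library was 0.907, against at least 0.977. CTX replicate 1 had the next largest count, 347. Summed markers of granulosa cells were at 1769 to 2339 FPKM in HBOT, 1469 to 2445 in CTX and 1381 to 1963 in NC libraries, and those of oocytes at 302 to 343, 209 to 314 and 134 to 188 FPKM. The oviduct factor Pax8 did not exceed 0.176 FPKM in any library, but it is only 1 of 7 listed oviduct markers. Together these summed to 9.43 to 10.26 FPKM in HBOT, 6.175 to 14.05 in CTX and 6.47 to 20.59 in NC libraries. Differences below are of log2(FPKM + 1), which understates changes of low genes, from 1 limma fit of the 3 groups with p-values adjusted over 13338 genes.

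The order of the 8 genes was much the same in every library, on the per-length FPKM scale. Plagl1, a zinc finger transcription factor that can arrest the cell cycle, and Grb10, an adaptor that restrains insulin and IGF1 receptor signalling, were the top pair in 9 of 9 libraries, Plagl1 first in 6 and Grb10 first in 3. Igf2r, which clears IGF2 from the cell surface, ranked directly below them in 8 libraries. Igf2, the fetal growth factor itself, and Dlk1, a membrane protein with EGF-like repeats that inhibits fat cell differentiation, were the lowest pair in 9 of 9. Over the 9 libraries the mean was 23.2 FPKM for Plagl1, 18.4 for Grb10, 11.8 for Igf2r, 7.91 for Mest, 7.77 for Ndn, 4.996 for Peg3, 1.88 for Igf2 and 1.34 for Dlk1. The SDs were 9.05, 1.86, 2.03, 2.59, 1.13, 1.07, 0.345 and 0.943 FPKM in the same order. The neighbours Plagl1 and Grb10, Mest and Ndn, and Igf2 and Dlk1 did not differ beyond these spreads. The means of Igf2 and Dlk1 lay above only 9.83% and 5.48% of the 13338 tested genes, and that of Plagl1 above 72.4%.

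**Figure D1:**
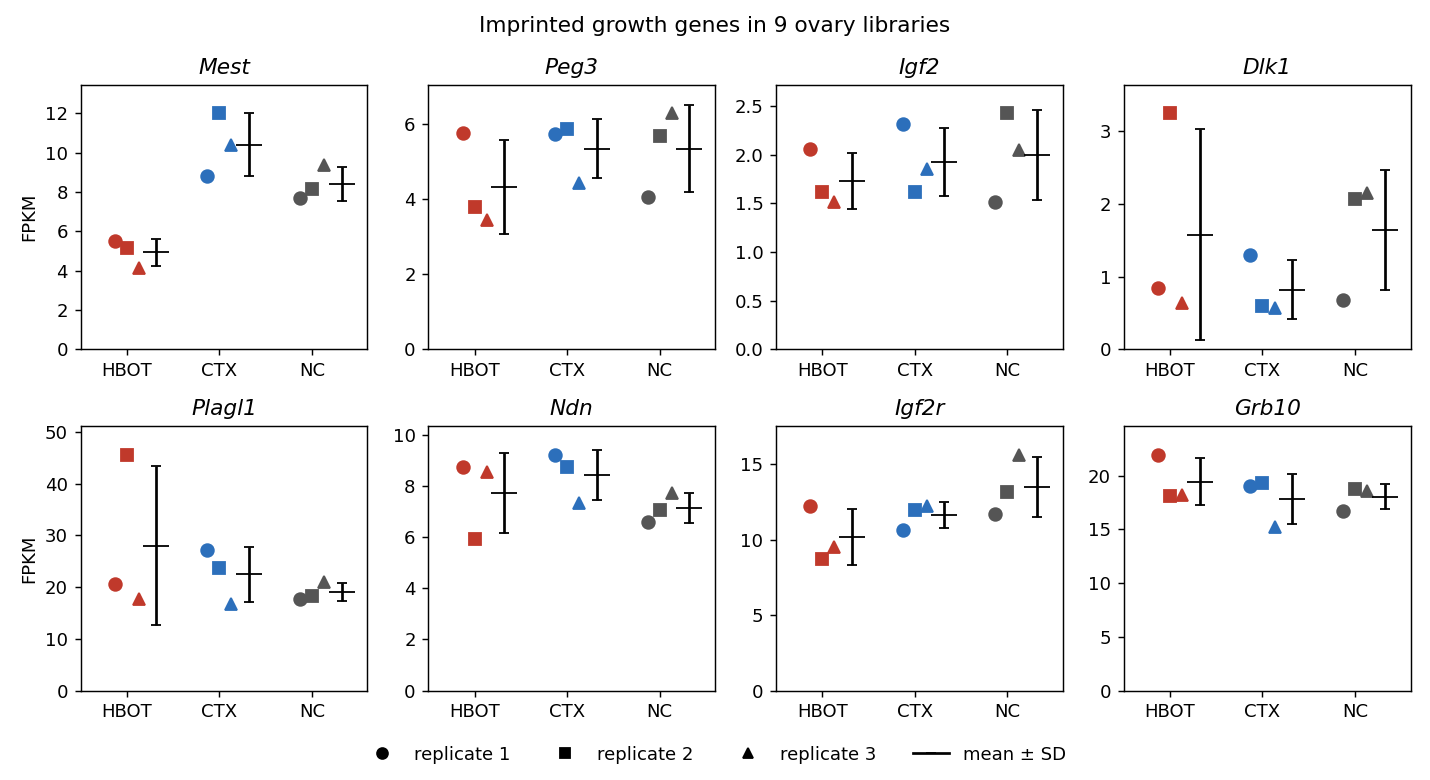
FPKM (vertical axis of each panel, from 0) of the 8 imprinted growth genes in the HBOT, CTX and NC libraries. Points are libraries, their shape is the replicate number, and bars are mean ± SD of the 3 libraries. The 3 HBOT points of Mest lie between 4.13 and 5.49 FPKM, below all others, and the high HBOT points of Plagl1 (45.6) and Dlk1 (3.24) are both replicate 2.

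Among the paternally expressed genes, Mest, which encodes a protein of the alpha/beta hydrolase fold family, was the one whose HBOT libraries did not overlap either other group. Mest was at 5.49, 5.16 and 4.13 FPKM in HBOT libraries, against 8.80, 12.0 and 10.4 FPKM in CTX libraries and 7.69, 8.17 and 9.37 FPKM in NC libraries. The lowest library outside HBOT was 1.40 times the highest HBOT library, while the CTX and NC libraries overlapped. The means were 4.93 ± 0.710 FPKM in HBOT, 10.4 ± 1.60 in CTX and 8.41 ± 0.869 in NC (SD, n = 3 each). HBOT against CTX the log2 difference was -0.94 (SE 0.15), a ratio of means of 0.474, and it did not pass in limma's fit (adjusted p = 0.579). HBOT against NC it was -0.67 (SE 0.15, ratio of means 0.586, limma adjusted p = 0.245), and CTX against NC it was 0.27 (SE 0.15, ratio 1.24, limma adjusted p = 0.729). HBOT shares its libraries between the first 2 of these comparisons, so they are not independent. Of the 13338 genes, 291 (2.18%) were lower in all 3 HBOT libraries than in all 6 others.

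The value of Mest did not rest on HBOT replicate 2. Without it the difference was -0.97 against CTX (limma adjusted p = 0.247) and -0.70 against NC (limma adjusted p = 0.234). Over 16 alternative settings it ran from -1.08 to -0.84 against CTX and from -0.77 to -0.57 against NC, and in none did it pass (limma adjusted p 0.117 to 0.867 and 0.10 to 0.605). Some settings cannot move these differences, only their errors. They are no filter, the 2 groups alone, the replicate block and leaving out a library of the group not compared.

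**Figure D2:**
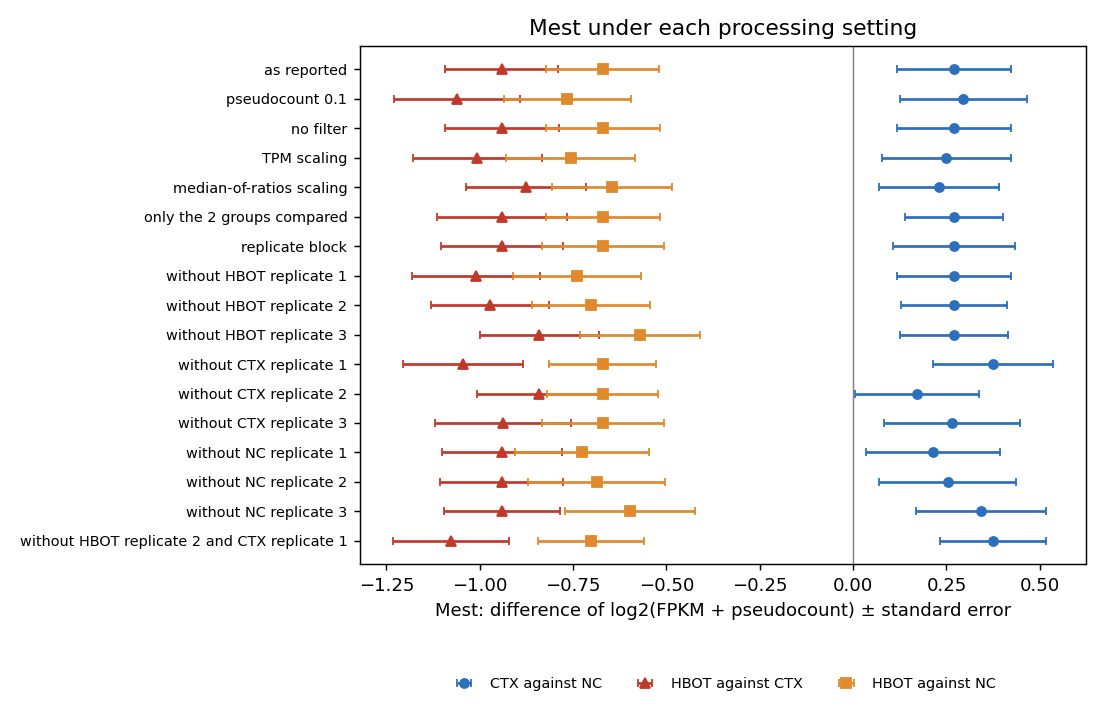
Difference of log2(FPKM + pseudocount) of Mest with its standard error (horizontal axis) under each processing setting (rows), for HBOT against CTX (triangles), HBOT against NC (squares) and CTX against NC (circles). All triangles and squares lie below 0, at or below -0.57, and all circles lie above 0, between 0.17 and 0.37. Rows without a filter, with only 2 groups, with the replicate block or without a library of the group not compared repeat the reported difference.

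Mest overlaps Copg2, a coat protein gene on the opposite strand, in GENCODE M21, and whether counting used strand is not given in the sources used here, so reads of the overlap cannot be told apart. Copg2 was at 18.9, 9.91 and 18.6 FPKM in HBOT libraries, against 21.2, 21.6 and 18.9 FPKM in CTX libraries and 19.3, 19.4 and 22.8 FPKM in NC libraries. Its HBOT libraries were below the others too, replicates 1 and 3 only just and replicate 2 far below, while the Mest level of replicate 2 lay between those of replicates 1 and 3. In whole ovary, fewer cells of a type and less RNA per cell cannot be told apart. For 0 of 13 marker lists (94 genes of ovarian, oviduct, fat, blood and dividing cells) did the summed FPKM of the 3 HBOT libraries lie below that of all 6 others. A sum is led by its most abundant genes. HBOT against NC, 6 of 6 luteal, 6 of 6 endothelial and 7 of 7 surface epithelium markers were lower, where 47.6% of all genes were higher. The luteal count rests on HBOT replicates 1 and 2, with sums of 305 and 519 FPKM. HBOT replicate 3, at 3025 FPKM, lay above every NC library (2329 to 2833 FPKM). Tested oocyte, leukocyte and erythroid markers were higher (9 of 9, 7 of 7 and 5 of 5), and other lists were mixed. HBOT against CTX, 3 of 6 luteal, 4 of 6 endothelial, 5 of 7 surface epithelium and 5 of 5 erythroid markers were lower. Both tested fat cell markers (2 of 2) were lower too, while 9 of 9 oocyte and 6 of 7 leukocyte markers were higher. The remaining lists were mixed, and 38.4% of all genes were higher. The part of these markers in the level of Mest was not tested. Stroma markers summed to 549 to 905 FPKM in HBOT, 574 to 751 in CTX and 723 to 1063 in NC libraries, and theca markers to 5179 to 6272, 4391 to 9307 and 6213 to 9133 FPKM. Fat cell markers summed to 14.7 to 22.0, 9.10 to 88.1 and 10.2 to 16.5 FPKM, with Lep and Ucp1 at or below 0.109 FPKM in every library.

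Plagl1 varied between libraries more than between groups. It was at 20.6, 45.6 and 17.7 FPKM in HBOT libraries, against 27.1, 23.6 and 16.7 FPKM in CTX libraries and 17.7, 18.3 and 20.9 FPKM in NC libraries. HBOT replicate 2 was 1.68 times the highest of the other 8, and the groups overlapped. Its log2 difference was 0.42 (SE 0.32, limma adjusted p = 0.595) HBOT against NC and 0.21 (SE 0.32, limma adjusted p = 0.822) HBOT against CTX. Without HBOT replicate 2 these were 0.012 and -0.20, so that library set the level and, against CTX, the direction. Markers of dividing cells were also highest in it, at a sum of 265 FPKM, against 131 to 208 FPKM in the other 8 libraries, and their part in the result was not tested.

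Dlk1 was the lowest of the 8 genes on average. It was at 0.847, 3.24 and 0.631 FPKM in HBOT libraries, against 1.29, 0.595 and 0.573 FPKM in CTX libraries and 0.683, 2.07 and 2.15 FPKM in NC libraries. It reached 1 FPKM in 4 of 9 libraries, spread over the 3 groups, which overlapped. CTX against NC the log2 difference was -0.50 (SE 0.39, limma adjusted p = 0.849), the largest of the 8 genes in that comparison in size and in error. HBOT against CTX it was 0.38 (SE 0.39, limma adjusted p = 0.751), and -0.045 without HBOT replicate 2.

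Igf2 showed no group order. It was at 2.05, 1.62 and 1.51 FPKM in HBOT libraries, against 2.31, 1.62 and 1.85 FPKM in CTX libraries and 1.51, 2.42 and 2.05 FPKM in NC libraries, with log2 differences of -0.10 (HBOT against CTX), -0.13 (HBOT against NC) and -0.028 (CTX against NC), each with an SE of 0.17. The read-through gene Gm49394, which overlaps Igf2 on the same strand, did not exceed 0.142 FPKM.

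Peg3, a zinc finger protein with roles in growth and maternal behaviour, was at 5.75, 3.77 and 3.43 FPKM in HBOT libraries, against 5.72, 5.86 and 4.43 FPKM in CTX libraries and 4.04, 5.68 and 6.28 FPKM in NC libraries. HBOT replicates 2 and 3 were the lowest of all 9 libraries and HBOT replicate 1 was among the highest. The log2 difference was -0.27 (SE 0.21) HBOT against CTX and -0.26 (SE 0.21) HBOT against NC, and CTX against NC it was 0.0094 (SE 0.21), which turned to -0.024 with TPM scaling and -0.028 with median-of-ratios scaling. Ndn, which encodes the growth suppressor necdin, was at 8.73, 5.92 and 8.56 FPKM in HBOT libraries, against 9.23, 8.74 and 7.33 FPKM in CTX libraries and 6.57, 7.08 and 7.74 FPKM in NC libraries. Its lowest library was HBOT replicate 2, without which the mean of the HBOT libraries was 8.64 FPKM, close to the CTX mean of 8.43. Ndn lay above Mest in 3 of 3 HBOT libraries, and below it in 2 of 3 CTX and 3 of 3 NC libraries.

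Of the maternally expressed genes, Igf2r was at 12.3, 8.73 and 9.55 FPKM in HBOT libraries, against 10.7, 12.0 and 12.3 FPKM in CTX libraries and 11.7, 13.2 and 15.7 FPKM in NC libraries. HBOT replicate 1 lay within the NC range and the other two HBOT libraries below every CTX and NC library. Its log2 difference was -0.38 (SE 0.15, limma adjusted p = 0.398) HBOT against NC, -0.19 (SE 0.15, limma adjusted p = 0.719) HBOT against CTX and -0.19 (SE 0.15, limma adjusted p = 0.849) CTX against NC. The antisense transcript Airn, which overlaps Igf2r, was not analysed here. Grb10 was at 22.0, 18.1 and 18.2 FPKM in HBOT libraries, against 19.04, 19.3 and 15.2 FPKM in CTX libraries and 16.7, 18.8 and 18.6 FPKM in NC libraries. It had the smallest spread of the 8 genes, its highest library being 1.45 times its lowest, and log2 differences of 0.12, 0.10 and -0.020 (SE 0.13 each) HBOT against CTX, HBOT against NC and CTX against NC.

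**Figure D3:**
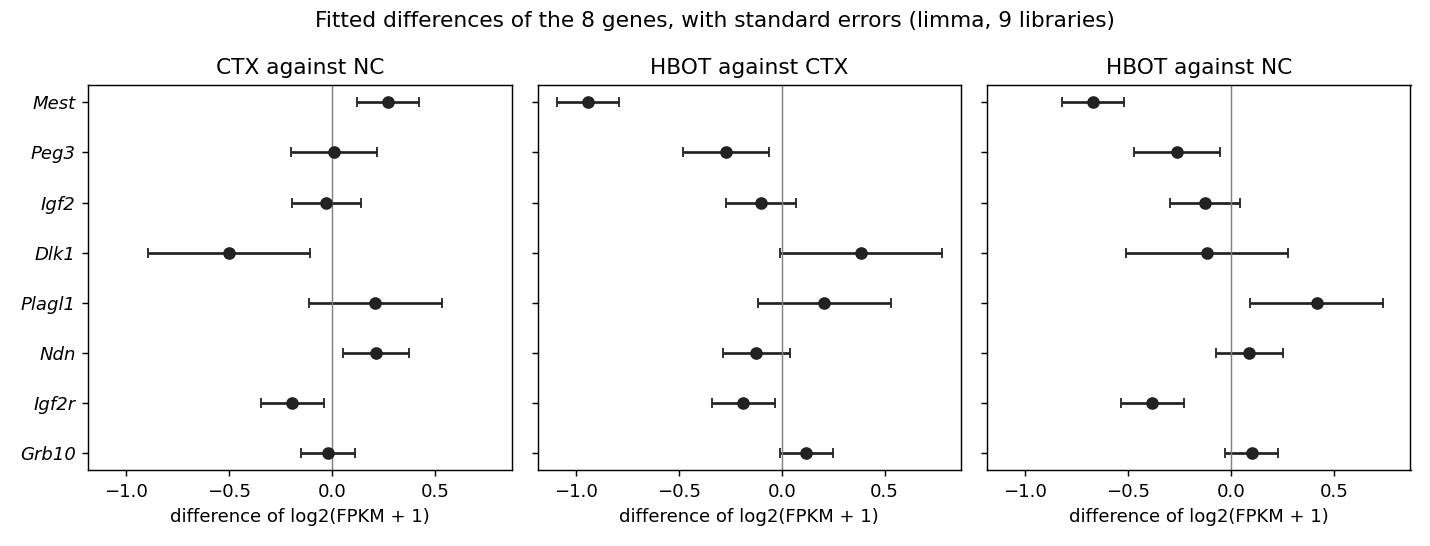
Fitted difference of log2(FPKM + 1) (horizontal axis) with its standard error for the 8 genes, in 1 panel per comparison. Mest lies farthest from 0 in both HBOT comparisons, at -0.94 and -0.67, and none of the 24 differences passed an adjusted p of 0.05.

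Counted together, 0 of the 8 genes passed limma's adjusted p of 0.05 in any comparison, as did 0 of all 13338 genes (0% called in each, smallest adjusted p 0.180 HBOT against CTX, 0.235 HBOT against NC and 0.169 CTX against NC). At an unadjusted p under 0.05 there were 1 of 8 HBOT against CTX (Mest), 2 of 8 HBOT against NC (Mest and Igf2r) and 0 of 8 CTX against NC, with 6.09%, 11.9% and 7.98% of all genes. In CTX against NC 4 were higher and 4 lower, with a median log2 difference of -0.0052, against 0.046 over all genes. In HBOT against CTX 3 were higher and 5 lower (median -0.11, all genes -0.067), and in HBOT against NC also 3 higher and 5 lower (median -0.12, all genes -0.015). Groups did not overlap for 0 of 8 genes CTX against NC, where 21% of all genes did not, for 1 of 8 (12.5%) HBOT against CTX, where 10.2% did not, and for 1 of 8 (12.5%) HBOT against NC, where 20.5% did not. That gene was Mest both times, lower in HBOT, as were 6.44% and 9.6% of all genes. Because 1 gene of 8 is already 12.5%, differences between these shares and those of all genes cannot be read. Nothing particular to the 8 genes follows from them.

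By likeness of pattern, the mean absolute difference of centred log2(FPKM + 1) over the 9 libraries, the genes closest to Mest were Fcho1 (0.16), Tlcd3b (0.16) and Klhdc8a (0.17), where the SD of Mest was 0.45. Fcho1 was at 2.85, 1.60 and 1.87 FPKM in HBOT libraries, against 3.44, 5.12 and 3.48 FPKM in CTX libraries and 2.83, 3.0 and 2.82 FPKM in NC libraries. Closest to Plagl1 were Lyar (0.089), Nolc1 (0.098) and the chromatin remodeller Hells (0.10), with a Plagl1 SD of 0.44. All of these peaked in HBOT replicate 2, Nolc1 at 62.5 FPKM, against 24.8 to 37.6 FPKM in the other 8 libraries. That shared peak follows from choosing them by likeness to Plagl1 and is not a separate observation. Closest to Dlk1 were Itgav (0.23), Wdr70 (0.23) and Nedd9 (0.23), with a Dlk1 SD of 0.53.

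Outside the 8 genes, 52 further genes described as imprinted in mouse, many only in placenta or brain, were listed. Of these 27 were tested, 17 fell below the filter of 1 FPKM in at least 3 libraries and 8 were not analysed here. Of the 27, 0 passed in any comparison. In CTX against NC 19 were higher and 8 lower (median 0.11), where 59.5% of all genes were higher. In HBOT against CTX 12 were higher and 15 lower (median -0.0086, 38.4% of all genes higher), and in HBOT against NC 18 and 9 (median 0.058, 47.6% of all genes higher). The neuronatin gene Nnat, which encodes a small membrane proteolipid, was at 90.7, 81.3 and 81.9 FPKM in HBOT libraries, against 130, 66.3 and 53.3 FPKM in CTX libraries and 32.6, 37.0 and 38.2 FPKM in NC libraries. Both the HBOT and the CTX libraries lay above all NC libraries (log2 difference 1.22, SE 0.28, limma adjusted p = 0.245 and 1.09, SE 0.28, limma adjusted p = 0.343). Erythroid markers summed to 317 to 735 FPKM in HBOT and 387 to 816 in CTX, against 62.8 to 207 FPKM in NC libraries, and leukocyte markers to 68.3 to 107 and 68.4 to 93.6, against 50.2 to 53.6 FPKM. Luteal markers summed to 305, 519 and 3025 FPKM in HBOT libraries and to 299.7 to 612 in CTX, against 2329 to 2833 FPKM in NC libraries. Both treated groups lay outside NC in the erythroid and leukocyte sums and in the oocyte sum given above, as did CTX in the luteal sum. The part of these markers in the values of Nnat and Commd1 was not tested. Asb4, which encodes a protein with ankyrin repeats and a SOCS box, was at 8.07, 6.92 and 6.10 FPKM in HBOT libraries, against 5.28, 2.27 and 1.82 FPKM in CTX libraries and 2.90, 2.61 and 2.72 FPKM in NC libraries. Its HBOT libraries lay above the rest, by 1.05 (SE 0.27, limma adjusted p = 0.710) against CTX and 1.09 (SE 0.27, limma adjusted p = 0.268) against NC. The retrotransposon-derived gene Peg10 was at 17.2, 70.0 and 20.0 FPKM in HBOT libraries, against 13.6, 22.1 and 10.8 FPKM in CTX libraries and 14.6, 21.3 and 30.0 FPKM in NC libraries, so HBOT replicate 2 again stood alone. Begain was at 3.01, 8.16 and 3.82 FPKM in HBOT libraries, against 3.0, 2.58 and 2.66 FPKM in CTX libraries and 1.88, 2.34 and 2.28 FPKM in NC libraries. Commd1 was lower than in NC in both treated groups without overlap, at 11.2 to 18.3 FPKM in HBOT and 14.7 to 17.6 in CTX, against 19.1 to 22.1 FPKM in NC libraries. The smaller differences of Tssc4 (0.43, SE 0.14), Mcts2 (-0.36, SE 0.16) and Snrpn (0.035, SE 0.15) HBOT against NC did not pass either.

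**Figure D4:**
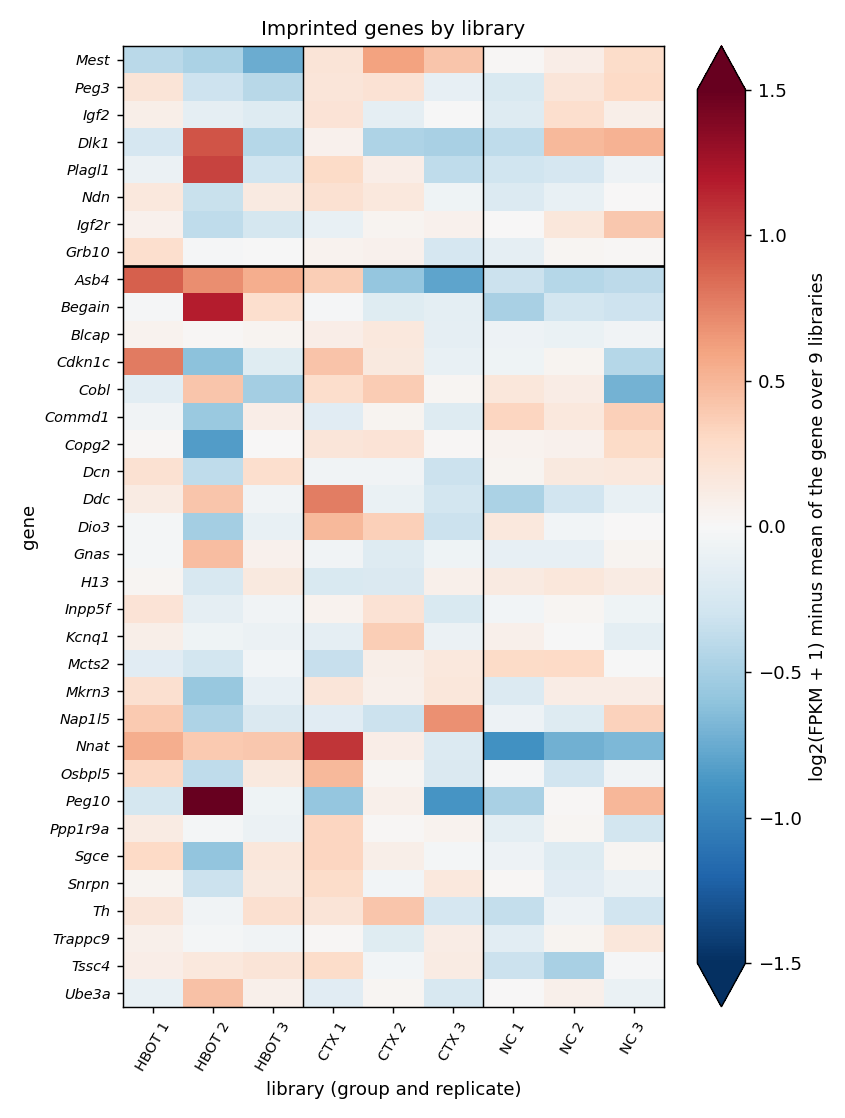
Each gene's log2(FPKM + 1) minus its mean over the 9 libraries (colour, red above and blue below, colours saturating at 1.5) for the 8 imprinted growth genes (above the line) and 27 further imprinted genes (below it), by library. Mest is blue in the 3 HBOT libraries, Asb4 red in them, Nnat blue in the 3 NC libraries, and Peg10, Begain, Plagl1 and Dlk1 are reddest in HBOT replicate 2.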

How the data were processed

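Polyadenylated RNA of mouse ovary was profiled in 9 libraries (HBOT, CTX and NC, 3 each), by paired-end sequencing per the labels. The submitters' processing notes name fastp 0.23.4 and build GRCm39 (mm39). No aligner, counting program or annotation release is named in the sources used here. FPKM values were computed and deposited by the authors in 1 table of 22544 rows, and 0 columns stayed unmatched to a sample. Among genes under 0.03 FPKM in a pair of libraries, at most 8.05% shared 1 ratio (within 0.02 log2 units), so read counts were not recovered from steps in the values and depth is unknown. Values were taken as log2(FPKM + 1). The 13338 rows at 1 FPKM or more in at least 3 libraries were fitted with limma 3.58.1 in R 4.3.3 (eBayes with trend, 6 residual degrees of freedom), with Benjamini-Hochberg adjustment over all rows of a comparison and calls at 0.05. The procedure was tested on simulated data. The genes, the lists and the rule for further named genes were chosen with earlier results of these data known. The rule took, per list, up to 4 genes of at least 2 FPKM on average with the smallest p in any comparison, and for likeness the 3 closest genes with established names whose SD was at least 0.5 times that of the member, for the 3 members with the widest SD. Zfp57 and Igf1r were named outside the rule, after their values were seen. Promoters came from RefSeq on GRCm38.p6, and overlapping genes from GENCODE M21 on GRCm38, by name only. Tables and figures were made in Python 3.11.15 with pandas 2.3.3, numpy 2.4.6 and matplotlib 3.10.9.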

Additional observations from a re-analysis of the deposited data

How the results depend on the processing

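Under 16 alternatives (a pseudocount of 0.1, no filter, TPM and median-of-ratios scaling, only the 2 groups compared, a replicate block, each library left out, and, added after seeing the data, HBOT replicate 2 and CTX replicate 1 left out together), 0 of the 8 genes passed in any comparison, and 16 of 24 differences kept their direction throughout. Dropping the filter, fitting only the 2 groups, adding the replicate block or leaving out a library of the group not compared cannot move a difference. These settings change only its error and p-value, so the direction count and the ranges rest on the other settings. CTX against NC, Peg3 turned to -0.024 (TPM) and -0.028 (median of ratios), and to -0.037 with both libraries out. Leaving out 1 library moved Peg3 between -0.15 and 0.12, Igf2 between -0.15 and 0.074 and Grb10 between -0.077 and 0.086. HBOT against CTX, with both libraries out, Ndn was at 0.099, Igf2 at 0.019 and Plagl1 at -0.052. Leaving out 1 library moved Igf2 between -0.18 and -0.0077, Ndn between -0.21 and 0.037, Plagl1 between -0.20 and 0.46 and Dlk1 between -0.045 and 0.64, with HBOT replicate 2 the library that turned Ndn, Plagl1 and Dlk1. HBOT against NC, it moved Dlk1 between -0.55 and 0.14. Calls over all genes, 0 as reported, were 31 CTX against NC in the 2 groups alone, 16 with both libraries out and 0 to 9 leaving out 1 library (8 without HBOT replicate 2, 9 without HBOT replicate 3, 1 without NC replicate 1). HBOT against CTX they were 1 without a filter, 2 with both libraries out and 0 to 1 leaving out 1. HBOT against NC they were 1 without a filter and 0 to 3 leaving out 1. The cause was not tested. The replicate block gave 0 calls in each comparison. Of 9 pairs of libraries that share a replicate number, 2 had deviations from the group means that correlated above 0.1 (range -0.287 to 0.156). Libraries with different numbers reached 0.409 (CTX replicate 1 with NC replicate 3) and -0.299 (CTX replicate 1 with NC replicate 2). With 3 libraries in a group their deviations are tied to each other, so whether the numbers pair the samples cannot be decided. Depth is unknown, so the counting error of low genes such as Igf2 and Dlk1 could not be given.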

Other observations

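The keepers of imprints and the DNA methylation enzymes were all measured, 18 of 18, and 0 passed limma's adjusted p in any comparison (CTX against NC 13 higher and 5 lower, HBOT against CTX 11 and 7, HBOT against NC 11 and 7, where 59.5%, 38.4% and 47.6% of all genes were higher). Dppa3, a maternal factor that protects imprints in the early embryo, was at 16.2, 21.0 and 18.6 FPKM in HBOT libraries, against 18.4, 19.1 and 17.6 FPKM in CTX libraries and 12.8, 12.0 and 10.6 FPKM in NC libraries, so both treated groups lay above NC. The maintenance methyltransferase Dnmt1 was at 40.6, 55.8 and 39.3 FPKM in HBOT libraries, against 45.6, 41.1 and 34.8 FPKM in CTX libraries and 31.6, 30.8 and 35.6 FPKM in NC libraries. Trim28, the corepressor that ZFP57 recruits, was at 128 to 146 FPKM in HBOT and 124 to 162 in CTX, against 103 to 123 FPKM in NC libraries. Zfp57 itself was at 41.8, 44.6 and 43.4 FPKM in HBOT libraries, against 41.5, 49.5 and 34.8 FPKM in CTX libraries and 43.8, 31.6 and 33.8 FPKM in NC libraries, and overlapped between groups. The summed oocyte markers, which include Dppa3 itself, were higher in HBOT and CTX than in NC libraries (302 to 343 and 209 to 314 FPKM, against 134 to 188). For Dppa3 the sum is therefore not a separate observation, and the part of oocyte markers in the other values was not tested. Arid4a was at 5.98 to 7.77 FPKM in HBOT, against 8.09 to 8.93 in CTX and 8.27 to 10.7 FPKM in NC libraries.

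Of 18 listed partners of IGF2 signalling 16 were tested and 0 passed in any comparison (CTX against NC 8 higher and 8 lower, HBOT against CTX 7 and 9, HBOT against NC 10 and 6, beside the same shares of all genes). The serine protease Htra1, which can cleave IGF binding proteins, was at 218, 260 and 296 FPKM in HBOT libraries, against 244, 302 and 278 FPKM in CTX libraries and 369, 379 and 410 FPKM in NC libraries. Both treated groups lay below every NC library (log2 difference -0.59, SE 0.13, limma adjusted p = 0.245 for HBOT and -0.49, SE 0.13, limma adjusted p = 0.373 for CTX). Igfbp4, which binds IGFs and limits their action, was at 49.7, 38.3 and 78.5 FPKM in HBOT libraries, against 49.96, 68.5 and 52.0 FPKM in CTX libraries and 90.7, 93.9 and 126.8 FPKM in NC libraries, again without overlap. The oocyte, erythroid, leukocyte and, in CTX, luteal marker sums given above also differed from NC without overlap. The part of these markers in the values of Htra1 and Igfbp4 was not tested. Igf1r, the receptor through which IGF2 signals, was at 20.6, 35.5 and 17.7 FPKM in HBOT libraries, against 20.1, 19.4 and 18.1 FPKM in CTX libraries and 18.8, 17.9 and 19.1 FPKM in NC libraries, with HBOT replicate 2 alone high. The IGF2 mRNA-binding protein gene Igf2bp2 was also highest there, at 13.6 FPKM, and at 3.92 to 7.87 FPKM in the other 8 libraries. Igfbp7 was at 421, 380 and 478 FPKM in HBOT libraries, against 347, 307 and 368 FPKM in CTX libraries and 371, 386 and 402 FPKM in NC libraries, so HBOT lay above CTX and overlapped NC. Of 20 listed neighbours and antisense partners of the imprinted growth genes 4 were tested, and of 8 genes listed as growth arrest and chromatin targets 8. In either list 0 passed. Of the neighbours 4 were higher and 0 lower CTX against NC, 1 and 3 HBOT against CTX, and 3 and 1 HBOT against NC. Of the other list 4 were higher and 4 lower, 5 and 3, and 6 and 2, in the same order, where 59.5%, 38.4% and 47.6% of all genes were higher. Among the 4 neighbours higher CTX against NC, Copg2 differed by only 0.0033 (SE 0.22). Of the neighbours, the mitochondrial ribosomal protein gene Mrpl23 was at 28.3 to 47.0 FPKM in HBOT and 40.3 to 50.9 in CTX, against 34.6 to 40.7 FPKM in NC libraries, and Cobl was at 1.33 to 3.43, 2.39 to 3.30 and 1.03 to 2.72 FPKM in HBOT, CTX and NC libraries. Of the growth arrest and chromatin targets, the stress-response gene Gadd45a was at 45.6, 49.0 and 91.1 FPKM in HBOT libraries, against 26.0, 31.7 and 40.7 FPKM in CTX libraries and 128, 99.2 and 123 FPKM in NC libraries, without overlap between any of the groups. The cell cycle inhibitor gene Cdkn1a was at 22.3, 35.9 and 13.04 FPKM in HBOT libraries, against 8.48, 10.7 and 7.12 FPKM in CTX libraries and 15.1, 19.5 and 21.4 FPKM in NC libraries, with CTX below both others. Ccng1 was at 13.5 to 21.8 FPKM in HBOT and 18.8 to 23.1 in CTX, against 24.0 to 24.5 FPKM in NC libraries. Bax was at 53.6 to 69.8 FPKM in HBOT and 66.4 to 69.6 in CTX, against 58.7 to 59.9 FPKM in NC libraries. The part of the marker sums given above in the values of these growth arrest genes was not tested.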
